A study of Coturnix japonica with 15 samples.

Results

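Oxidative phosphorylation is carried out by proteins coded in the nucleus together with a few coded in the mitochondrion's own DNA, and the nuclear share of that gene set is described here in the liver of Japanese quail embryos exposed to an oestrogen. Genes were taken by symbol from NCBI's gene table for Coturnix japonica: any symbol that starts with NDUF, UQCR, ATP5 or COX4 to COX8, and SDHA, SDHB, SDHC and SDHD. This found 64 of the 20308 gene IDs in the count table. They were 34 subunits of complex I, 8 complex I assembly factors, the 4 subunits of complex II, 16 genes of the ATP synthase, and the pair NDUFA4 and NDUFA4L2, which carry complex I names but belong with complex IV. No symbol of the table used here started with UQCR or with COX4 to COX8, so the nuclear subunits of complex III and the other nuclear subunits of complex IV were not analysed here.

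RNA came from the left lobe of the liver at embryonic day 9. Before incubation at 37 °C and 60% humidity, 10 µl of dosing solution had been injected into the air cell of each egg. The 3 groups were DMSO solvent alone, 3.33 µg of ethinylestradiol (EE2, a synthetic oestrogen) per g of egg, and 33.3 µg of EE2 per g, each with 5 libraries. The labels do not say whether the libraries of a group came from separate embryos, and p-values measure the spread between libraries, which may in part be technical. The comparisons asked whether the transcripts of the respiratory chain and ATP synthase differed between exposed and solvent livers, and between the doses.

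As background, complex I oxidises NADH and passes the electrons to ubiquinone. Complex II, succinate dehydrogenase, feeds electrons from the citric acid cycle into the same pool. Complexes III and IV carry the electrons on to oxygen, and the protons pumped along the way drive the ATP synthase. Hepatocytes hold many mitochondria and use this ATP for the synthesis of plasma proteins, glucose and lipoproteins. In birds a laying hen's liver makes yolk precursors under oestrogen.

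Library totals ran from 21715263 to 54591387 estimated counts, and all 64 genes passed the low-count filter that left 14508 genes for testing. The 64 genes together took 1.26% (95% Wilson interval 1.25% to 1.26%) of the counts in 3.33 µg/g replicate 3, the lowest share, and 1.87% (1.87% to 1.88%) in solvent replicate 2, the highest. These intervals cover counting error only. Levels are given in CPM, counts scaled to library totals adjusted by the TMM method. They are not corrected for transcript length, so they compare libraries for 1 gene and not genes with each other. In 13 libraries albumin took 9.71% to 13.3% of the counts, and it took 4.85% in 3.33 µg/g replicate 4 and 5.87% in 33.3 µg/g replicate 1. Of the 9 hepatocyte markers with an entry, all were detected in every library, ALB, APOA1 and TF among them.

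None of the 64 nuclear genes analysed passed the test at either dose. At 33.3 µg/g against solvent, 0 of 64 had an adjusted p under 0.05 by edgeR's quasi-likelihood test with Benjamini-Hochberg adjustment, where 157 of all genes tested (1.08%) did. For 3.33 µg/g against solvent the count was again 0 of 64, beside 200 of all genes (1.38%). The smallest adjusted p of a member was 0.364 at 33.3 µg/g and 0.185 at 3.33 µg/g. DESeq2 and limma-voom also called 0 members in either comparison. Before adjustment, 3 of 64 members had p under 0.05 at 33.3 µg/g and 5 of 64 at 3.33 µg/g. Over all genes these shares were 10.8% and 14.6%, so the members were called no more often than genes at large.

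The 95% intervals, taken gene by gene without adjustment for the number of genes, show what sizes of change the data allow. At 33.3 µg/g the 95% interval of the fold change lay inside a 2-fold change in either direction for all 64 members, and inside a 1.5-fold change for 59. For 3.33 µg/g these counts were 61 and 56. The 3 members whose interval reached past 2-fold at 3.33 µg/g were ATP5F1A, ATP5ME and NDUFA4L2. In the plot of fold changes and intervals most lines cross 0.

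**Figure D1:**
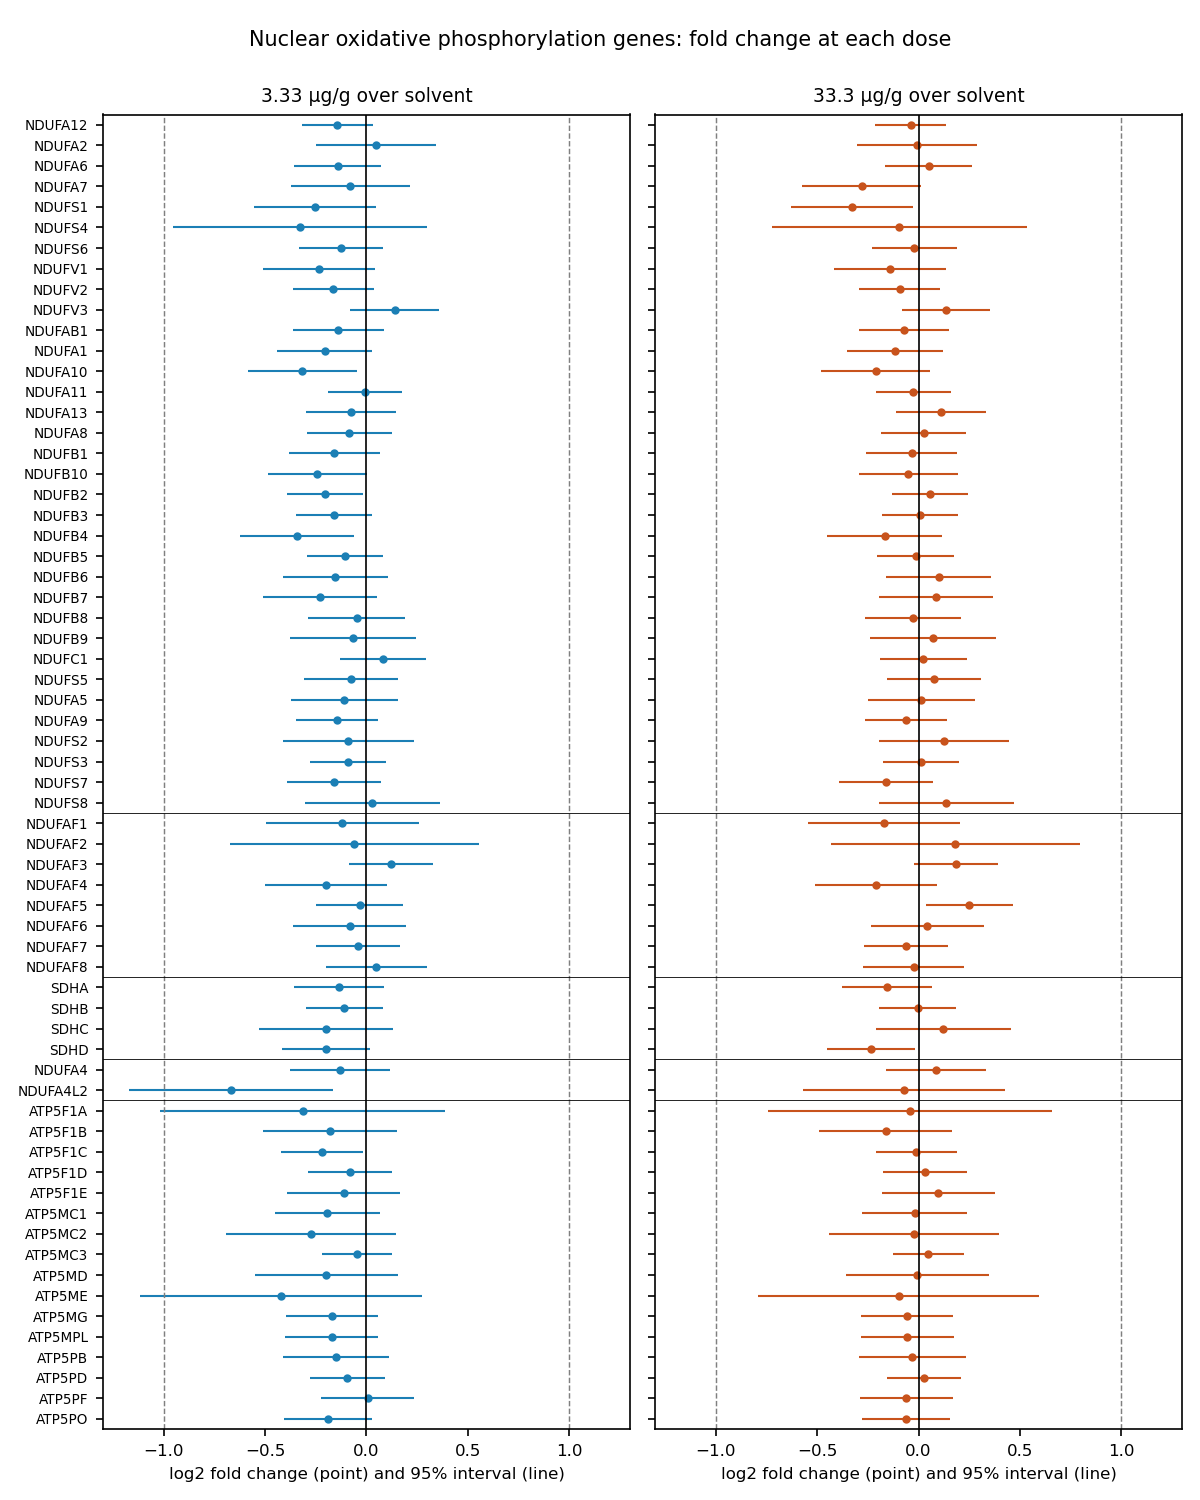
Log2 fold change (point) with its 95% interval (line) of each of the 64 genes, at 3.33 µg/g (left) and 33.3 µg/g (right) over solvent, n = 5 libraries a group. Dashed lines mark a 2-fold change, and 0 members passed the adjusted threshold in either panel.

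The members lay mostly on the lower side at 3.33 µg/g, by small amounts. Of the 64, 57 had a log2 fold change below 0, against 49.2% of all genes tested, and the median was −0.14 beside 0.004 over all genes. The 33.3 µg/g comparison had 39 of 64 below 0, against 50% of all genes, and the median was −0.02. Without solvent replicate 5 the median at 33.3 µg/g was 0.01. The members were measured in the same libraries, so these counts are a description and not 64 independent results. Both comparisons use the same solvent libraries.

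The lower values at 3.33 µg/g sat in some of its libraries and not in others. In 3.33 µg/g replicates 2, 3 and 4, 56, 61 and 55 of the 64 members were below their own median over all 15 libraries. In replicates 1 and 5 of the same dose the counts were 13 and 8, among the lowest of the study. The counts were 45, 34, 11, 28 and 17 in replicates 1 to 5 of 33.3 µg/g, and 34, 15, 48, 16 and 7 in those of the solvent group. The groups therefore overlapped: solvent replicate 3 had more members below their median than 33.3 µg/g replicate 1.

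The median deviation of the members from those gene medians was −0.20, −0.31 and −0.21 (log2) in 3.33 µg/g replicates 2, 3 and 4, and 0.02 and 0.13 in replicates 1 and 5. It ran from −0.11 to 0.11 at 33.3 µg/g and from −0.12 to 0.13 with solvent. Leaving out 3.33 µg/g replicate 3 moved the median log2 fold change of the members at that dose to −0.09.

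**Figure D2:**
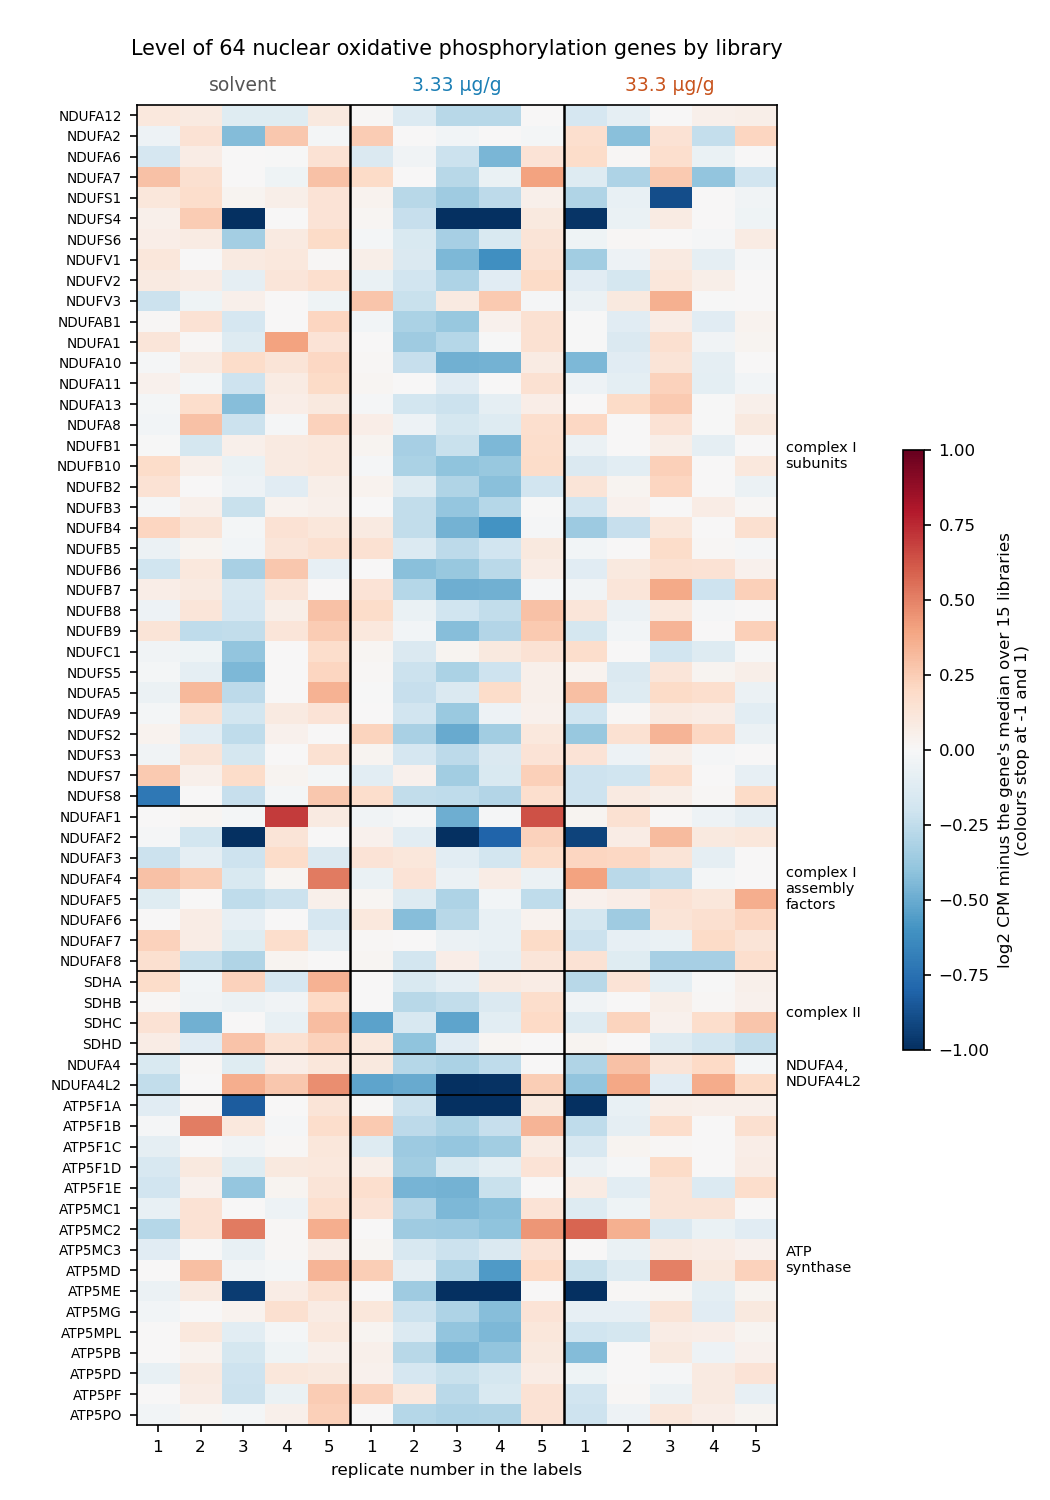
Log2 CPM of each of the 64 genes (rows, by complex) in each of the 15 libraries (columns), minus the gene's median over the libraries. Replicates 2, 3 and 4 of 3.33 µg/g are mostly blue, with 56, 61 and 55 genes below their median, and the 4 genes that are dark in solvent replicate 3 and in 33.3 µg/g replicate 1 alike are those on chromosome Z.

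Hepatocyte markers were low in the 3.33 µg/g libraries where most members were low. The mean log2 CPM of the 9 hepatocyte markers was 11.29, 11.15 and 10.47 in 3.33 µg/g replicates 2, 3 and 4, and 11.02 in 33.3 µg/g replicate 1. In the other 11 libraries it was 11.36 to 11.76. These included solvent replicate 3, at 11.48, where 48 members were below their own median. The lowest of the 11 was solvent replicate 5, at 11.36, where 7 members were below their own median. The summed hepatocyte marker level ranged from 151506 to 187399 CPM with solvent, from 61155 to 173438 CPM at 3.33 µg/g and from 84041 to 177152 CPM at 33.3 µg/g. The largest contributor was ALB, and no hepatocyte marker was at 0 in any library.

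With the hepatocyte mean as a covariate, a setting added after the data had been seen, the median of the members at 3.33 µg/g was −0.09, and 0 members passed. Of 8 macrophage markers 7 had an entry, and their sum was 180.4 CPM in 3.33 µg/g replicate 3, against 69.5 to 114 CPM in the other 3.33 µg/g libraries, 44.0 to 74.8 CPM at 33.3 µg/g and 43.2 to 82.0 CPM with solvent. Their mean log2 CPM was 2.94, 4.35 and 3.25 in 3.33 µg/g replicates 2, 3 and 4, and 3.10 and 3.83 in replicates 1 and 5. The 8 endothelial markers summed to 426 to 520.2 CPM with solvent, 441 to 643 CPM at 3.33 µg/g and 402 to 480.0 CPM at 33.3 µg/g. Of the 9 hepatocyte markers 7 were below 0 at either dose, with median log2 fold changes of −0.33 at 3.33 µg/g and −0.16 at 33.3 µg/g. The other 2, RBP4 and 1 more, were above 0 with an unadjusted edgeR p under 0.05 at each dose. The latter had the highest log2 fold change of the list, 1.25 at 3.33 µg/g and 2.52 at 33.3 µg/g, and did not pass. Both raised markers are part of the hepatocyte mean. At 3.33 µg/g 4 of the 9 hepatocyte markers had an unadjusted p under 0.05 in the lower direction, APOA1, FGA, HNF4A and TF, and none of these passed. FGA, a fibrinogen chain, passed only with the mean of both doses set against solvent, where it was lower (log2 fold change −0.84, SE 0.20, edgeR adjusted p = 0.0391). At a single dose 0 hepatocyte markers passed in the lower direction. The macrophage markers had 6 of 7 above 0 at 3.33 µg/g (median 0.70) and 3 of 7 at 33.3 µg/g (−0.07). RBP4, the retinol carrier of plasma, averaged 1846 ± 233 CPM at 3.33 µg/g and 1745 ± 328 CPM at 33.3 µg/g, against 1072 ± 81.3 CPM with solvent (SD, n = 5 each), and passed at either dose (edgeR adjusted p = 0.00464 and 0.0115). C1QB, a chain of complement C1q, averaged 14.9 ± 4.02 CPM at 3.33 µg/g and 8.16 ± 1.65 CPM with solvent (SD, n = 5 each; edgeR adjusted p = 0.0234).

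Of 5 biliary and epithelial markers, EPCAM, SOX9 and CFTR had an entry. Their mean log2 CPM was 3.16 to 3.60 in solvent replicate 3, 3.33 µg/g replicates 2 to 4 and 33.3 µg/g replicate 1, the libraries with the lowest member medians in each group, and 1.94 to 2.88 in the other 10. Their sums overlapped, at 110.1 to 234 CPM with solvent, 109 to 163 CPM at 3.33 µg/g and 86.7 to 138 CPM at 33.3 µg/g. The sum did not follow the mean: 33.3 µg/g replicate 1 had the lowest sum of all 15 libraries, 86.7 CPM. SOX9 alone was at 42.2 CPM in 3.33 µg/g replicate 4. The 3 markers differed in direction, with 2 above 0 and 1 below at 3.33 µg/g (log2 fold changes −0.27 to 2.14). At 33.3 µg/g 1 was above 0 and 2 were below (−0.51 to 0.85). The sums of 8 mesenchymal and 5 erythroid markers overlapped between the groups as well. The part of these marker shifts in the members' levels was not tested. In bulk tissue, fewer cells of a type and less RNA per cell cannot be told apart.

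**Figure D3:**
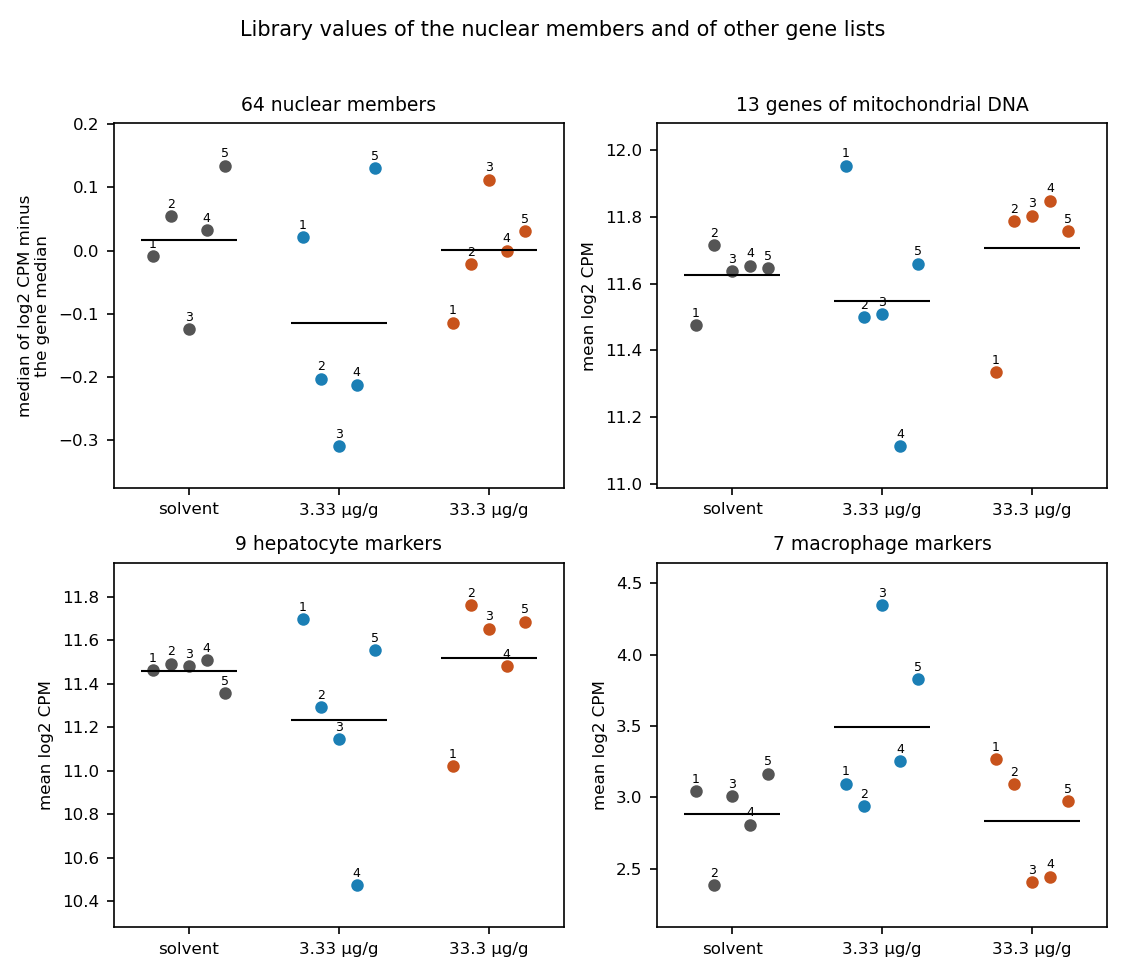
Library values (points, numbered by replicate; line, mean of 5) of the 64 nuclear members as the median deviation in log2 CPM, and of 13 mitochondrial DNA genes, 9 hepatocyte markers and 7 macrophage markers as mean log2 CPM. Replicates 2, 3 and 4 of 3.33 µg/g are lowest for the nuclear members, between −0.20 and −0.31, and 3.33 µg/g replicate 4 is lowest for the hepatocyte markers at 10.47.

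Complex I takes its electrons from NADH in a matrix arm and pumps protons in a membrane arm. Of its 34 subunit genes 30 were below 0 at 3.33 µg/g, with a median log2 fold change of −0.14, and at 33.3 µg/g 19 of 34 were, with a median of −0.02. By module, the NADH-oxidising module had 8 of 10 genes below 0 at either dose, with medians of −0.14 at 3.33 µg/g and −0.07 at 33.3 µg/g. The ubiquinone-reducing module had 5 of 6 below 0 at 3.33 µg/g (median −0.10) and 2 of 6 at 33.3 µg/g (0.01). The membrane arm and other accessory subunits had 16 of 17 below 0 at 3.33 µg/g (−0.15) and 8 of 17 at 33.3 µg/g (0.01). None of these counts was tested against each other.

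NDUFS1 (NCBI gene ID 107316600), the largest iron-sulphur subunit of the NADH-oxidising module, had 308, 359, 206, 379 and 370.4 CPM at 33.3 µg/g, against 409.6, 429, 387, 396 and 417 CPM with solvent. All 5 libraries of 33.3 µg/g were below every solvent library, the only member in which these groups did not overlap in the lower direction (1 of 64, beside 1.07% of all genes), and 33.3 µg/g replicate 3 was lowest. Its log2 fold change was −0.33 (SE 0.14, 95% interval −0.63 to −0.03, adjusted p = 0.419 by edgeR), so it did not pass. Without 33.3 µg/g replicate 3 the value was −0.20. NDUFS1 at 3.33 µg/g had 389, 314, 296, 316 and 394 CPM (log2 fold change −0.25, SE 0.14, edgeR adjusted p = 0.433), and its replicate 1 and 5 values lay inside the solvent range.

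NDUFA7, an accessory subunit of the same module, averaged 68.1 ± 12.9 CPM at 33.3 µg/g and 82.8 ± 8.91 CPM with solvent (SD, n = 5 each; edgeR log2 fold change −0.28, SE 0.14, adjusted p = 0.485). Its 33.3 µg/g replicate 3, at 89.8 CPM, was inside the solvent range of 72.6 to 91.6 CPM. NDUFV1, which binds the NADH and the flavin, had 505, 439, 356, 317 and 539.7 CPM at 3.33 µg/g, against 485 to 526 CPM with solvent. Replicates 2, 3 and 4 of 3.33 µg/g were below every solvent library, and replicate 5 was above them all (edgeR log2 fold change −0.24, SE 0.13, adjusted p = 0.432). NDUFA2, the complex I subunit gene with the fewest counts, averaged 27.3 ± 4.74 CPM with solvent, 28.2 ± 2.41 CPM at 3.33 µg/g and 27.2 ± 5.1 CPM at 33.3 µg/g (SD, n = 5 each).

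In the membrane arm NDUFB4 (NCBI gene ID 107319670) had 213, 169, 145, 132 and 199 CPM at 3.33 µg/g, against 233, 219, 198, 221 and 217 CPM with solvent. Replicates 2, 3 and 4 of 3.33 µg/g were below every solvent library, and the other 2 were inside the solvent range. The log2 fold change was −0.34 (SE 0.13, 95% interval −0.63 to −0.06, edgeR adjusted p = 0.233). NDUFA10, an accessory subunit of the same arm, had 506, 428, 358, 360.0 and 529.6 CPM at 3.33 µg/g, against 496, 529.8, 568, 547 and 577 CPM with solvent. The same 3 libraries were below the solvent range (log2 fold change −0.32, SE 0.13, edgeR adjusted p = 0.250). NDUFB2 had 116, 104, 92.0, 85.1 and 99.4 CPM at 3.33 µg/g, against 105 to 126 CPM with solvent (log2 fold change −0.20, SE 0.09, edgeR adjusted p = 0.293). These 3 genes at 33.3 µg/g gave log2 fold changes of −0.17, −0.21 and 0.05 in the same order, with edgeR adjusted p-values of 0.742, 0.614 and 0.908.

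Complex I assembly factors are not part of the finished enzyme. Of the 8, 6 were below 0 at 3.33 µg/g and 4 at 33.3 µg/g, with medians of −0.05 and 0.009. NDUFAF5 (NCBI gene ID 107310895), which modifies the subunit NDUFS7, had 11.2, 11.4, 12.1, 11.8 and 14.1 CPM at 33.3 µg/g, against 10.0, 10.9, 9.18, 9.44 and 11.3 CPM with solvent. Its 33.3 µg/g replicates 2 to 5 exceeded the highest solvent value, and replicate 1 did not (log2 fold change 0.25, SE 0.10, 95% interval 0.04 to 0.47, edgeR adjusted p = 0.364). NDUFAF3, which joins early intermediates, had 41.0, 40.9, 38.6, 33.3 and 35.4 CPM at 33.3 µg/g, against 30.5, 33.2, 30.6, 40.1 and 32.1 CPM with solvent. Solvent replicate 4 lay among the 33.3 µg/g values (log2 fold change 0.18, SE 0.10, edgeR adjusted p = 0.537), and at 3.33 µg/g the log2 fold change was 0.12 (SE 0.10, edgeR adjusted p = 0.616).

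NDUFAF4, a partner of NDUFAF3, averaged 12.7 ± 0.838 CPM at 3.33 µg/g and 14.6 ± 2.61 CPM with solvent (SD, n = 5 each; edgeR adjusted p = 0.562). Its log2 fold change was −0.20 at 3.33 µg/g and −0.21 at 33.3 µg/g. NDUFAF1, which binds a membrane arm intermediate, was at 84.0 CPM in solvent replicate 4 and 80.4 CPM in 3.33 µg/g replicate 5, and at 36.8 to 57.5 CPM in the other 13 libraries. NDUFAF6 had the fewest counts of the class, at 9.32 ± 0.603 CPM with solvent, 8.80 ± 1.3 CPM at 3.33 µg/g and 9.61 ± 1.57 CPM at 33.3 µg/g (SD, n = 5 each), and its groups overlapped.

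Complex II is coded by nuclear genes alone, a catalytic pair (SDHA and SDHB) and a membrane anchor (SDHC and SDHD). All 4 were below 0 at 3.33 µg/g (median −0.17) and 3 of 4 at 33.3 µg/g (−0.08). SDHD (NCBI gene ID 107324125) had 219, 215, 197, 190.1 and 182 CPM at 33.3 µg/g, against 226, 199.6, 262, 239.6 and 253 CPM with solvent. Replicates 3, 4 and 5 of 33.3 µg/g were below every solvent library (log2 fold change −0.23, SE 0.10, 95% interval −0.45 to −0.02, edgeR adjusted p = 0.423). For 3.33 µg/g SDHD had 232, 163, 199, 218 and 215 CPM (log2 fold change −0.20, SE 0.10, edgeR adjusted p = 0.389).

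SDHA, the flavoprotein that oxidises succinate, averaged 236 ± 25.1 CPM at 33.3 µg/g and 263 ± 37.3 CPM with solvent (SD, n = 5 each; log2 fold change −0.15, SE 0.10, edgeR adjusted p = 0.679). Its solvent libraries alone ran from 215 to 307 CPM, a range that held all 5 libraries of 3.33 µg/g. SDHB, the iron-sulphur subunit, averaged 209.9 ± 5.48 CPM at 33.3 µg/g and 211 ± 16 CPM with solvent (SD, n = 5 each), a log2 fold change of −0.005 with a 95% interval of −0.19 to 0.18. SDHC averaged 144 ± 27.9 CPM with solvent, 125 ± 27.4 CPM at 3.33 µg/g and 157 ± 17.1 CPM at 33.3 µg/g (SD, n = 5 each). Its log2 fold change was below 0 at 3.33 µg/g (−0.20, edgeR adjusted p = 0.604) and above 0 at 33.3 µg/g (0.12, edgeR adjusted p = 0.868).

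NDUFA4 is an accessory subunit of cytochrome c oxidase, and NDUFA4L2 (NCBI gene ID 107325836) is its paralogue, known in mammals as a gene induced by low oxygen. NDUFA4L2 had 6.04, 6.15, 4.21, 4.40 and 10.3 CPM at 3.33 µg/g, against 7.34, 8.70, 11.2, 10.5 and 12 CPM with solvent. Replicates 1 to 4 of 3.33 µg/g were below every solvent library and replicate 5 was inside the solvent range. The log2 fold change, −0.67 (SE 0.24, 95% interval −1.17 to −0.17), was the lowest of the 64 members at that dose, with an adjusted p of 0.185 by edgeR. Without 3.33 µg/g replicate 5 the value was −0.93 and passed (adjusted p = 0.0309), which was the only member called under any library left out.

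NDUFA4L2 at 33.3 µg/g had 6.61, 11.4, 8.03, 11.2 and 9.94 CPM, and 4 of the 5 libraries lay inside the solvent range (log2 fold change −0.07, SE 0.23, edgeR adjusted p = 0.961). NDUFA4 had 304, 233, 228, 238 and 284 CPM at 3.33 µg/g, against 255, 287, 262, 297 and 307 CPM with solvent (log2 fold change −0.13, SE 0.12, edgeR adjusted p = 0.664). NDUFA4 at 33.3 µg/g averaged 299 ± 45.6 CPM (SD, n = 5; log2 fold change 0.09, edgeR adjusted p = 0.881).

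**Figure D4:**
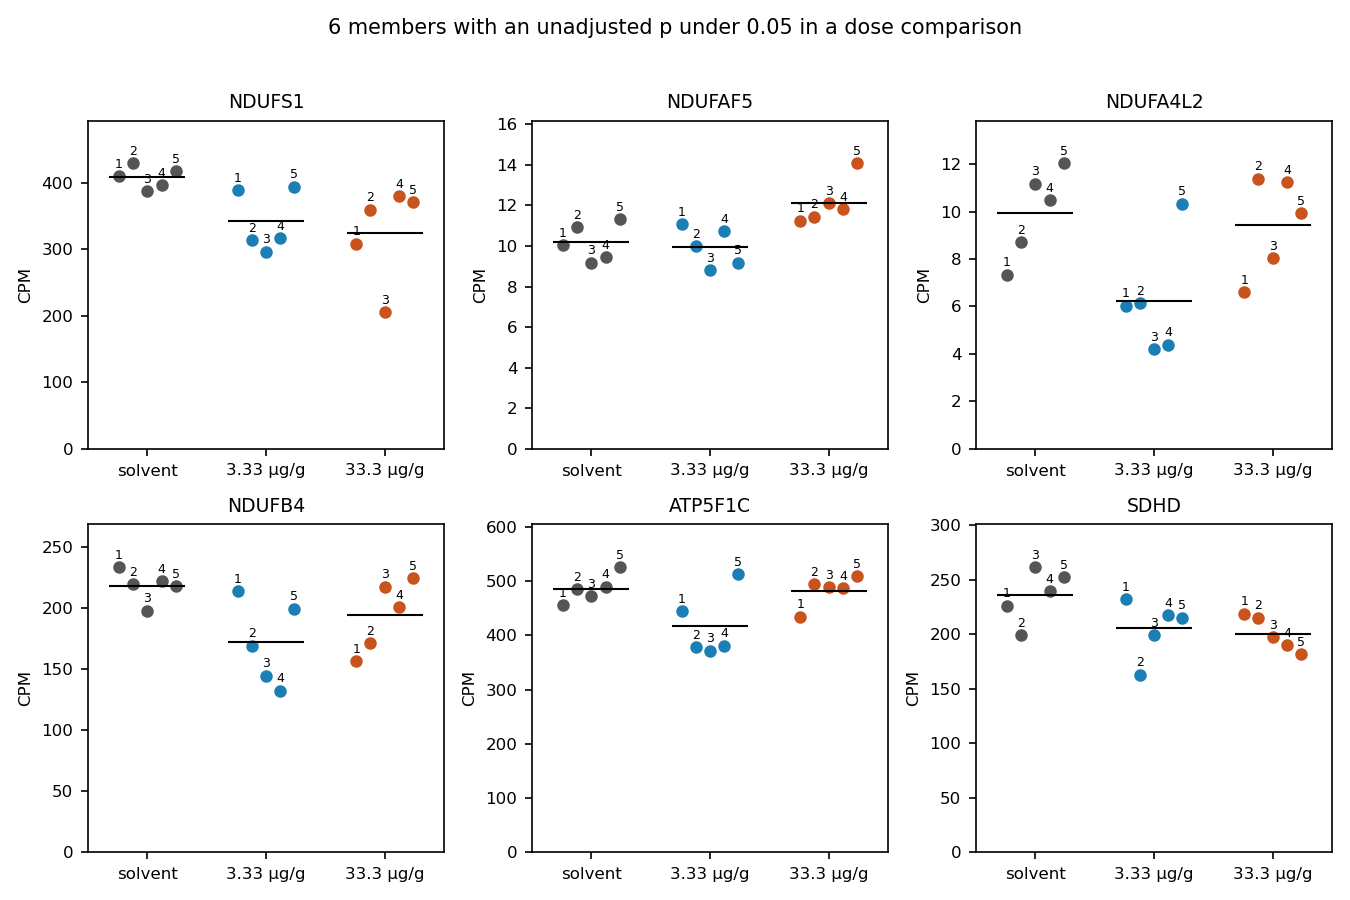
CPM by library (points, numbered by replicate; line, mean of 5) of 6 genes with an unadjusted p under 0.05 at one dose: NDUFS1, NDUFAF5 and SDHD at 33.3 µg/g, NDUFA4L2, NDUFB4 and ATP5F1C at 3.33 µg/g. Of the 6, NDUFS1 alone has its 33.3 µg/g libraries (206 to 379 CPM) apart from the solvent libraries (387 to 429 CPM), and none passed after adjustment.

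The ATP synthase turns proton flow through a ring of c subunits into ATP made in the F1 head. Of its 16 genes 15 were below 0 at 3.33 µg/g, with a median log2 fold change of −0.18, and at 33.3 µg/g 12 of 16 were, with a median of −0.03. The single gene above 0 at 3.33 µg/g was ATP5PF, at 0.01. By part, the medians at 3.33 µg/g were −0.18 for 5 genes of the F1 head and central stalk, −0.12 for 4 of the peripheral stalk, −0.19 for 3 of the c ring and −0.18 for the 4 others. The medians at 33.3 µg/g ran from −0.06 to −0.01.

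ATP5F1B, the catalytic beta subunit, had 3444, 2394, 2303, 2443 and 3636 CPM at 3.33 µg/g, against 2838, 4095, 3089, 2849 and 3241 CPM with solvent. Replicates 2, 3 and 4 of 3.33 µg/g were below every solvent library, and replicates 1 and 5 were inside their range (log2 fold change −0.18, SE 0.15, edgeR adjusted p = 0.645). ATP5F1B at 33.3 µg/g averaged 2878 ± 351 CPM, against 3222 ± 516 CPM with solvent (SD, n = 5 each; log2 fold change −0.16, SE 0.15, edgeR adjusted p = 0.806). The solvent mean held 1 library at 4095 CPM, and without that replicate 2 the log2 fold change at 33.3 µg/g was −0.07.

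ATP5F1C (NCBI gene ID 107315811), the gamma subunit of the rotating stalk, had 444, 378, 372, 381 and 513 CPM at 3.33 µg/g, against 456, 486, 473, 490.2 and 526 CPM with solvent. Replicates 1 to 4 of 3.33 µg/g were below every solvent library, replicate 1 by a small margin (log2 fold change −0.22, SE 0.09, 95% interval −0.42 to −0.02, edgeR adjusted p = 0.293). ATP5F1C at 33.3 µg/g averaged 483 ± 28.2 CPM, against 486 ± 26.2 CPM with solvent (SD, n = 5 each; log2 fold change −0.01, 95% interval −0.21 to 0.19). ATP5PO, which ties the peripheral stalk to the F1 head, had 379, 311, 307, 308 and 419.8 CPM at 3.33 µg/g, against 371 to 446 CPM with solvent (log2 fold change −0.19, SE 0.10, edgeR adjusted p = 0.415). ATP5F1E, the small epsilon subunit, averaged 126 ± 12.2 CPM at 33.3 µg/g and 118 ± 16.4 CPM with solvent (SD, n = 5 each; log2 fold change 0.10, edgeR adjusted p = 0.882).

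ATP5MC1, ATP5MC2 and ATP5MC3 code for the same mature c subunit in mammals, with different import sequences. ATP5MC1 averaged 616 ± 48.2 CPM with solvent, 539 ± 111 CPM at 3.33 µg/g and 608 ± 46.3 CPM at 33.3 µg/g (SD, n = 5 each). ATP5MC3 averaged 782 ± 41.4 CPM with solvent, 757 ± 77.5 CPM at 3.33 µg/g and 809 ± 34.6 CPM at 33.3 µg/g (SD, n = 5 each). ATP5MC2, the ATP synthase gene with the fewest counts, averaged 91.9 ± 19.5 CPM with solvent, 76.0 ± 20.8 CPM at 3.33 µg/g and 90.4 ± 21.5 CPM at 33.3 µg/g (SD, n = 5 each). The groups overlapped for each of the 3 genes, and reads of such close paralogues may be split between them by the counting.

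The 4 members on chromosome Z varied more between replicates than any other member. ATP5F1A, the alpha subunit of the F1 head, ATP5ME, a small membrane subunit, NDUFS4, an accessory subunit of complex I, and NDUFAF2, an assembly factor, are placed on Z in NCBI's table for the Coturnix japonica 2.1 assembly. Their mean within-group coefficients of variation were 31.0% to 33.9%. NDUFA4L2, the next, had 26.9%. In birds, males carry a pair of Z chromosomes and females a single Z beside a W, and the balancing of Z gene dose is known from the chicken to be incomplete. The labels give no sex for the embryos, and its part in these values was not tested.

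ATP5F1A had 2751, 2994, 1666, 2969 and 3246 CPM in the solvent libraries, 2993, 2559, 1184, 1048 and 3176 CPM in those of 3.33 µg/g and 1158, 2816, 3099, 3079 and 3077 CPM in those of 33.3 µg/g. ATP5ME had 273, 303, 147, 299.8 and 316 CPM in the solvent libraries, 285, 223, 98.1, 108 and 285 CPM in those of 3.33 µg/g and 118, 288, 288, 267 and 289.7 CPM in those of 33.3 µg/g. NDUFS4 had 108, 123, 49.0, 104 and 114 CPM in the solvent libraries, 105, 88.5, 45.1, 46.1 and 111 CPM in those of 3.33 µg/g and 52.7, 98.9, 109.9, 104 and 101 CPM in those of 33.3 µg/g. In all 3 genes the low values came from the same 4 libraries, 3.33 µg/g replicates 3 and 4, 33.3 µg/g replicate 1 and solvent replicate 3.

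NDUFAF2 was low in the same 4 libraries, at 9.16, 10.6, 9.79 and 7.70 CPM in that order, and at 16.4 to 23.1 CPM in the other 11. The mean log2 CPM of 641 further Z genes was 3.06 to 3.14 in those 4 libraries and 3.40 to 3.59 in the other 11. ATP5F1B, the partner of ATP5F1A in the F1 head and not on Z, was at 2443 CPM or less in 3.33 µg/g replicates 2, 3 and 4 and in 33.3 µg/g replicate 1, and at 3089 CPM in solvent replicate 3. The 4 low libraries were spread over all 3 groups, 2 of them at 3.33 µg/g, and the Z members gave log2 fold changes of −0.42 to −0.06 there with edgeR adjusted p-values of at least 0.603. Without the 4 Z members, 53 of 60 members were below 0 at 3.33 µg/g and the median was −0.14. The median deviation of these 60 from their gene medians was −0.31 and −0.18 (log2) in 3.33 µg/g replicates 3 and 4. It was −0.07 in 33.3 µg/g replicate 1 and −0.12 in solvent replicate 3, the lowest of either group. In 3.33 µg/g replicate 2, which was not low for Z genes, it was −0.19. How far the Z levels and those of the other members go together was not tested.

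**Figure D5:**
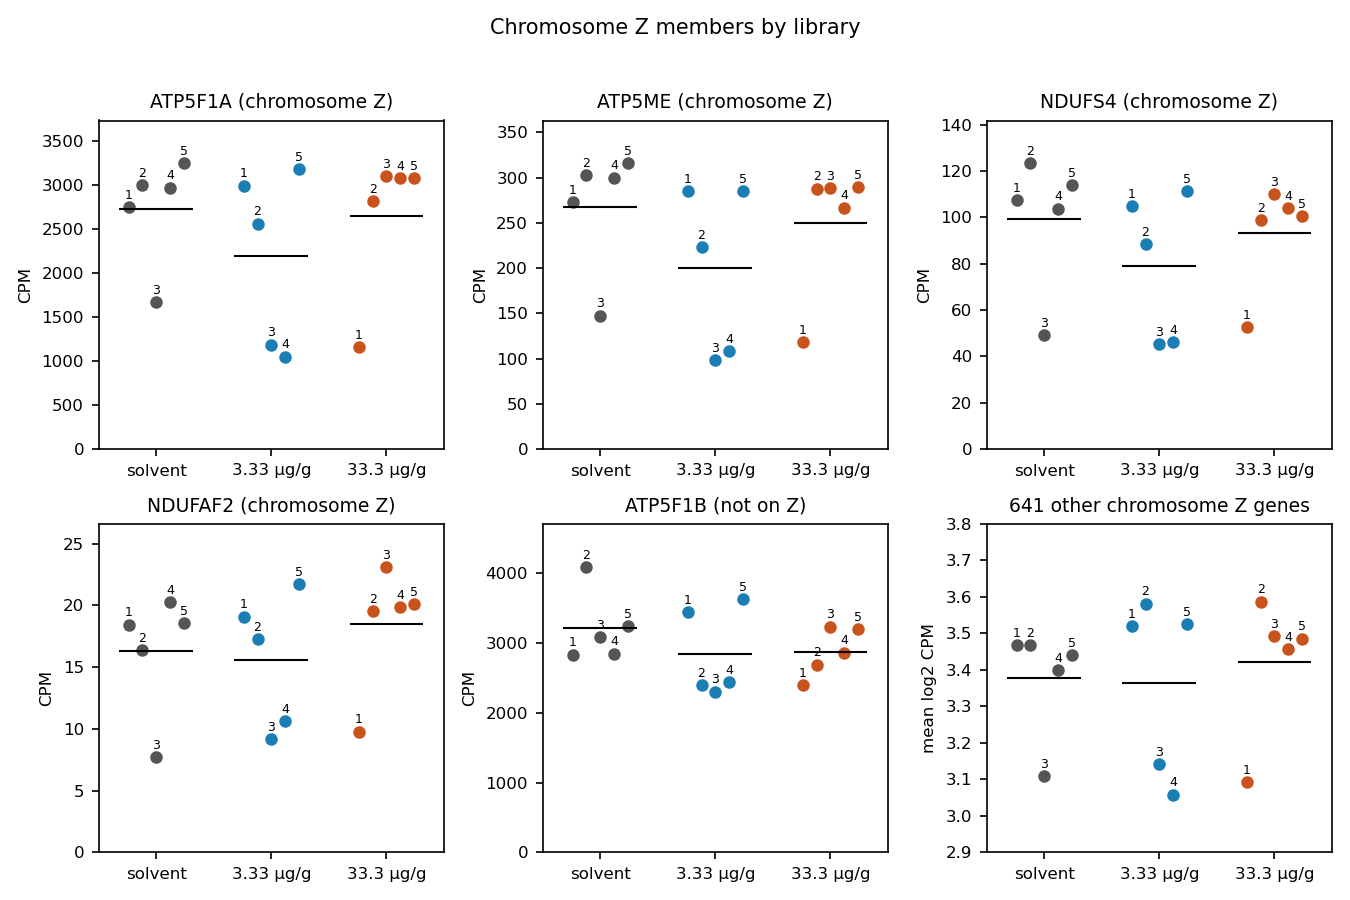
CPM by library (points, numbered by replicate; line, mean of 5) of the 4 chromosome Z members and of ATP5F1B, and the mean log2 CPM of 641 other Z genes, on an axis that does not start at 0. In the 5 Z panels 3.33 µg/g replicates 3 and 4, 33.3 µg/g replicate 1 and solvent replicate 3 lie apart, for the other Z genes at 3.06 to 3.14 against 3.40 to 3.59.

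The 39 members outside the rule for naming included the chromosome Z genes ATP5ME, NDUFS4 and NDUFAF2, but not ATP5F1A. Over these 39, log2 fold changes at 3.33 µg/g ran from −0.42 for ATP5ME to 0.14 for NDUFV3, with 34 below 0 and a smallest edgeR adjusted p of 0.293. At 33.3 µg/g they ran from −0.16 for NDUFS7 to 0.18 for NDUFAF2, with 21 below 0 and a smallest edgeR adjusted p of 0.674. NDUFV3, a small subunit of the NADH-oxidising module and the highest of the 64 at 3.33 µg/g, averaged 42.1 ± 5.83 CPM there and 38.2 ± 2.53 CPM with solvent (SD, n = 5 each), and its groups overlapped. NDUFB10, a membrane arm subunit, had 178, 144, 136, 138 and 203 CPM at 3.33 µg/g, against 204, 186, 171, 191 and 193 CPM with solvent. NDUFB7, of the same arm, had 146, 109, 94.5, 95 and 132 CPM at 3.33 µg/g, against 139, 141, 119, 144 and 133 CPM with solvent. Both genes were picked after their values were seen, and had replicates 2, 3 and 4 of 3.33 µg/g below every solvent library and replicate 5 not. Of the 39, NDUFA5, NDUFA8, NDUFA11, NDUFA13, NDUFC1, NDUFS5, NDUFS6, NDUFS8, NDUFAF2, NDUFAF7 and NDUFAF8 had no library of 3.33 µg/g below every solvent library. The same held for the named members NDUFA2, NDUFAF3, NDUFAF4 and SDHA. For NDUFA8, NDUFA13, NDUFS5 and NDUFS6 solvent replicate 3 was lowest with solvent, at 75.1, 101, 88.6 and 48.2 CPM. Replicates 2, 3 and 4 of 3.33 µg/g were below all other solvent libraries in these genes, as in NDUFB10 and NDUFB7. NDUFA5, NDUFA11, NDUFC1, NDUFS8, NDUFAF2, NDUFAF7, NDUFAF8 and those named members did not share that pattern.

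The median within-group coefficient of variation over the 64 was 10.0% with solvent, 14.7% at 3.33 µg/g and 9.74% at 33.3 µg/g. For the 9141 genes at or above the mean of the lowest member, it was 11.8% with solvent, 14.0% at 3.33 µg/g and 12.5% at 33.3 µg/g. The members' median was thus below that of these genes in 2 of the 3 groups, and not at 3.33 µg/g. The 9141 genes were not matched to the members in level, so the difference cannot be set apart from one in level.

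Between the doses, 50 of 64 members were higher at 33.3 than at 3.33 µg/g and 14 (21.9%) were lower, beside 50.7% of all genes lower. The median log2 fold change was 0.11, beside −0.002 over all genes. Of the 64, 0 passed by edgeR (smallest adjusted p = 0.841), as did 0 of all genes (0%), and 5 members had an unadjusted p under 0.05, beside 5.55% of all genes. DESeq2 and limma-voom called 0 members, and over all genes they called 19 and 0. NDUFAF5 was the 1 member whose doses did not overlap, with 11.2 to 14.1 CPM at 33.3 µg/g and 8.81 to 11.1 CPM in the 3.33 µg/g livers (log2 fold change 0.28, SE 0.10, edgeR adjusted p = 0.841). Over all genes, 0.31% were apart in that direction and 0.345% in the other, where there was no member. Against solvent, no member stood wholly above at 33.3 µg/g (1.84% of all genes), nor wholly above (2.3%) or below (1.6%) at 3.33 µg/g.

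With the mean of both doses set against solvent, which puts 10 libraries against 5, 52 of 64 members were below 0 beside 49.6% of all genes, and the median was −0.07. Again 0 members passed by edgeR, beside 285 of all genes (1.96%). An unadjusted p under 0.05 was given to 4 members, beside 14.7% of all genes: SDHD (log2 fold change −0.22, SE 0.09), NDUFA10 (−0.26, SE 0.11), NDUFS1 (−0.29, SE 0.12) and NDUFB4 (−0.26, SE 0.11). The adjusted p-values of these 4 were 0.255, 0.262, 0.270 and 0.310 by edgeR.

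The subunits coded by mitochondrial DNA belong to complexes I, III and IV and the ATP synthase, and their 13 genes took 5.77% to 8.49% of the counts of a library. None of the 13 passed at either dose. All 13 were above 0 at 33.3 µg/g, with a median log2 fold change of 0.07, and 11 of 13 were below 0 at 3.33 µg/g, with a median of −0.06. The smallest p-values at 33.3 µg/g were those of ATP6, an ATP synthase subunit (log2 fold change 0.18, SE 0.13, edgeR adjusted p = 0.708), and ND1, a complex I subunit (0.17, SE 0.15, 0.775). Those at 3.33 µg/g were of ND3 (−0.13, SE 0.12, 0.698) and ND4L (−0.14, SE 0.16, 0.744), both of complex I.

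The summed level of the 13 genes varied most at 3.33 µg/g, with 90915, 65469, 65959, 48274 and 72655 CPM, against 62146 to 73625 CPM with solvent. At 33.3 µg/g it was 58161 CPM in replicate 1 and 77333 to 79426 CPM in the others, above every solvent library in those 4. The ratio of this sum to the summed nuclear members was 5.09, 4.52, 5.40, 3.84 and 3.86 at 3.33 µg/g, against 3.75, 3.97, 4.72, 4.21 and 3.78 with solvent. In the 33.3 µg/g libraries that ratio lay between 4.30 and 4.82. The ranges overlapped. No test was made on sums over these genes.

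Other genes of mitochondrial energy metabolism gave few calls. The citric acid cycle list of 26 genes also held kinases of pyruvate dehydrogenase, which are not enzymes of the cycle. Of the 26, 0 passed in either comparison, and 22 were below 0 at 3.33 µg/g (median −0.15) and 19 at 33.3 µg/g (−0.09). At 3.33 µg/g 7 of them were lower and 1 higher with an unadjusted edgeR p under 0.05, beside 14.6% of all genes in either direction. The list summed to 7434 to 7926 CPM with solvent, 5413 to 7077 CPM at 3.33 µg/g and 5365 to 7597 CPM at 33.3 µg/g. Its sums were not tested. The smallest p-values at 3.33 µg/g belonged to PDK4 (log2 fold change −0.56, SE 0.17, edgeR adjusted p = 0.113) and PDK1 (−0.42, SE 0.14, 0.157), kinases that switch off pyruvate dehydrogenase. Those at 33.3 µg/g belonged to OGDH, part of the oxoglutarate dehydrogenase (−0.20, SE 0.08, 0.385), and PDK1 (−0.30, SE 0.14, 0.449). For the mitochondrial ribosome, 0 of 73 passed, and 41 were below 0 at 3.33 µg/g (median −0.03) and 28 at 33.3 µg/g (0.02). Its smallest p-values were those of MRPL52 (−0.28, SE 0.07, 0.0533) and MRPL37 (−0.20, SE 0.09, 0.339) at 3.33 µg/g, and MRPS12 (0.42, SE 0.13, 0.179) and MRPS17 (−0.29, SE 0.09, 0.210) at 33.3 µg/g. Among 25 tested assembly factors outside the symbol rule, 0 passed. FOXRED1 and TMEM186, both of complex I assembly, had the smallest p-values, with log2 fold changes of 0.24 and 0.30 at 3.33 µg/g and 0.20 and 0.29 at 33.3 µg/g.

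Among 22 tested carriers and shuttle genes, 1 rose and 0 fell at each dose. CKMT2, the sarcomeric form of mitochondrial creatine kinase, had 8, 25.6, 5.93, 0.644 and 3.63 CPM at 3.33 µg/g, against 0.0929, 0.0879, 0.143, 0 and 0 CPM with solvent. All 5 libraries at that dose were above every solvent library (edgeR adjusted p = 0.00225; with limma-voom 0.0967, not passing). CKMT2 at 33.3 µg/g had 1.39, 3.36, 1.43, 1.41 and 6.02 CPM (edgeR adjusted p = 0.0197), and that call ended with limma-voom (0.290) and without any of solvent replicates 1, 2, 4 or 5 (up to 0.0634). Striated muscle markers, 7 of which were tested, summed to 20.5 to 105 CPM with solvent, 14.8 to 97 CPM at 3.33 µg/g and 17.2 to 70.6 CPM at 33.3 µg/g. The library with the most CKMT2, 3.33 µg/g replicate 2, also had the highest striated sum of its group, 97 CPM against 14.8 to 27.8 CPM in the other 4. Replicate 4 of that dose had the lowest of both, 0.644 CPM of CKMT2 and a striated sum of 14.8 CPM. In solvent replicates 4 and 5 CKMT2 was at 0, and the striated sums were 20.5 and 42.0 CPM. The highest striated sum of all, 105 CPM, was in solvent replicate 3. Its CKMT2, 0.143 CPM, was the highest with solvent but below every exposed library. At 33.3 µg/g the order differed. Replicate 1 of 33.3 µg/g combined the highest striated sum of its group, 70.6 CPM, with the lowest CKMT2, 1.39 CPM. Replicate 5 of that dose had its most CKMT2, 6.02 CPM, and a striated sum of 28.4 CPM. The part of striated muscle RNA in the CKMT2 values was not tested.

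Among 27 tested genes of mitochondrial transcription and biogenesis, 0 passed at a single dose. With both doses against solvent, 2 fell and 0 rose. ESRRG, a nuclear receptor that binds promoters of oxidative metabolism genes, averaged 36.0 ± 6.17 CPM at 3.33 µg/g and 37.5 ± 6.88 CPM at 33.3 µg/g, against 53.2 ± 6.47 CPM with solvent (SD, n = 5 each; log2 fold change −0.53, SE 0.12, edgeR adjusted p = 0.0298). PPARA, a receptor that drives fatty acid oxidation, averaged 77.3 ± 14.4 CPM at 3.33 µg/g and 75.6 ± 10.2 CPM at 33.3 µg/g, against 113 ± 26.5 CPM with solvent (SD, n = 5 each; log2 fold change −0.56, SE 0.14, edgeR adjusted p = 0.0496). The ESRRG call ended in 9 of the 15 fits with 1 library left out (adjusted p up to 0.0924) and the PPARA call in 13 of 15 (up to 0.153). Of 13 other settings 2 ended the ESRRG call, the replicate block (adjusted p = 0.0964) and the use of 1 transcript row per gene in place of the sum, where the log2 fold change was −0.27 (adjusted p = 0.926). The PPARA call ended in 6 of 13, with adjusted p-values of 0.0503 without the low-count filter, 0.0726 with the erythroid covariate, 0.0756 with limma-voom, 0.102 without the 2 libraries of low albumin, 0.120 with the replicate block and 0.711 with 1 transcript row per gene.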

How the data were processed

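RNA-seq libraries of embryonic quail liver were used, 5 in each of 3 groups. Reads were quantified with kallisto, per the submitters' processing notes. Its version and index, like the build, were not given in the sources used here, and no coordinates are printed. The authors deposited kallisto's estimated counts for each transcript (expected counts), which carry no normalization. The 47418 transcript rows were summed per NCBI gene ID and rounded to whole numbers, and 18900 of 20308 IDs (93.1%) matched NCBI's gene table. Of the 64 members, 46 had 1 transcript row and 18 several. No protein, promoter or transcript sequences were used here, so levels could not be set per length.

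edgeR 4.0.16 in R 4.3.3 (filterByExpr by group, TMM, robust quasi-likelihood F-test, two-sided) was fitted to all 15 libraries and 14508 genes, with Benjamini-Hochberg adjustment over all of them and a threshold of 0.05. The common biological coefficient of variation was 0.263. Intervals are the log2 fold change ± the t quantile times its standard error (SE). Alternatives used RLE factors, library totals, 2 other filters, DESeq2 1.42.0, limma 3.58.1 (voom), a replicate block, erythroid, hepatocyte and chromosome Z covariates, 1 transcript row per gene and left-out libraries. The pipeline was tested on simulated data. Figures were drawn with matplotlib 3.10.9 in Python 3.11.15.

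The members, lists and tests were chosen with earlier results of these data known. Members were named by rule: the 2 with the smallest p per class and dose, those with the most and fewest counts per class, all SDH genes, the ATP5MC paralogues, and from each other list the genes that passed or else the 2 with the smallest p. NDUFA5, NDUFA8, NDUFA11, NDUFA13, NDUFB2, NDUFB7, NDUFB10, NDUFC1, NDUFS5, NDUFS6, NDUFS7, NDUFS8, NDUFV3, NDUFAF7, NDUFAF8 and ATP5PF were singled out after their values were seen. So were the markers, the chromosome Z members and the non-overlapping genes. No library was a copy of another of its group: chi-square divided by its degrees of freedom was at least 27.0 in all 30 replicate pairs.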

Additional observations from a re-analysis of the deposited data

Results flagged for a closer look

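In 24 of 252 groups of 5 libraries looked at (the 64 nuclear and 13 mitochondrial DNA genes and their class means), 1 library stood apart from the other 4 by Dixon's criterion at 95%. Chance flags about 1 in 20 groups. On chromosome Z, 33.3 µg/g replicate 1 was low for ATP5F1A at 1160 CPM, ATP5ME at 118 CPM, NDUFS4 at 52.7 CPM and NDUFAF2 at 9.79 CPM. Solvent replicate 3 was low for ATP5ME at 147 CPM and NDUFS4 at 49.0 CPM, and off chromosome Z for NDUFB3 at 57.3 CPM and NDUFS6 at 48.2 CPM.

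NDUFB3 was also low in 33.3 µg/g replicate 1, at 58.4 CPM. The same library was low for the mitochondrial DNA genes ATP6 at 4670 CPM, COX3 at 6760 CPM, ND4 at 4750 CPM, ND5 at 4690 CPM and CYTB at 5810 CPM, and for the mean of all 13 at 11.3 log2 CPM. Its hepatocyte marker mean was 11.02 log2 CPM, against 11.48 to 11.76 in the other 33.3 µg/g libraries. Solvent replicate 1 was low for COX1 at 17500 CPM and COX2 at 5300 CPM.

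High single libraries were solvent replicate 5 for ATP5PO at 446 CPM and SDHB at 238 CPM, and solvent replicate 4 for NDUFAF1 at 84.0 CPM and NDUFAF3 at 40.1 CPM. They also included 33.3 µg/g replicate 3 for NDUFA11 at 95.3 CPM and NDUFB5 at 208 CPM, and 3.33 µg/g replicate 1 for NDUFA2 at 32.5 CPM. The part of any library property in these values was not tested.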

How the results depend on the processing

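The count of members past the threshold was 0 in all 4 comparisons under RLE factors, library totals, both other filters, DESeq2, limma-voom, an adjusted p under 0.1, the erythroid, hepatocyte and chromosome Z covariates, the fit without the 2 libraries of low albumin, and 1 transcript row per gene. With 1 library left out it ranged from 0 to 1 at 3.33 µg/g, the 1 being NDUFA4L2, and stayed at 0 otherwise. The median log2 fold change at 3.33 µg/g ranged from −0.20 to −0.09 with 1 library left out and from −0.15 to −0.09 over the other settings; at 33.3 µg/g the ranges were −0.06 to 0.01 and −0.04 to −0.004. With library totals only the median at 3.33 µg/g was −0.09 while that of all genes was 0.06. NDUFA4L2 at 33.3 µg/g reversed to 0.034 without the low-albumin libraries, and ranged from −0.17 to 0.026 with 1 library left out. These causes were not tested.

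No pairing of libraries by replicate number was seen: deviations over all genes tested correlated above 0.1 in 1 of 15 same-number pairs. No library (0) had its highest correlation within its own number. A small effect shared by a number may not show in these correlations. With the replicate block 0 members passed and the median at 3.33 µg/g was −0.14. The fit to only the groups compared has no value for both doses together, and levels per length were not run. What depth limits was not tested. The hepatocyte and chromosome Z covariates were added after seeing the data.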
